A study of Mus musculus with 17 samples.

Results

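Type I interferon-stimulated genes are the genes that a cell switches on when a type I interferon binds its receptor, and 47 of them were listed by symbol before being looked up in the table of gene counts. A row under the listed symbol was found for 46 of the 47, out of 22859 rows in the whole table, and all 46 were among the 15272 genes that passed the filter on low counts. The remaining symbol, Ddx58, is the older name of Rigi, and the row named Rigi is given beside the 46 without being counted among them. The list was drawn up from gene function and not from values in these libraries, but with earlier results of the same libraries known.

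The cells were macrophages sorted from mouse synovium, the membrane that lines the joint, and every mouse was an Fcgr2b-KO mouse. Fcgr2b encodes an inhibitory IgG receptor, so all groups, controls included, lacked that brake on the response to immune complexes. Mice were either controls or had received immune complexes (IC, ovalbumin bound by anti-ovalbumin IgG) intravenously 8 h before collection. The macrophages were sorted into 3 subsets, LYVE1+CX3CR1+, MHCII+CD11c- and also MHCII+CD11c+, with 3 libraries in each control group and in each IC group, except for 2 in the MHCII+CD11c+ IC group. By the study's methods, mice in its in vivo experiments were in general between 8 and 20 weeks of age; an age for each library and the number of mice behind it are not given in the sources used here. No mice with intact Fcgr2b were analysed here, so the values describe the response without that receptor only.

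Type I interferons such as interferon beta bind the receptor formed by IFNAR1 and IFNAR2, and the kinases JAK1 and TYK2 then act on STAT2. STAT2 and IRF9 are parts of the complex ISGF3, which binds a short promoter element with repeated GAAA blocks and raises transcription of the interferon-stimulated genes. Their products detect foreign nucleic acid, block translation or degrade RNA, keep viruses from entering or replicating, and feed back on the pathway, with IRF7 as the factor that amplifies further interferon production. In macrophages, receptors for IgG, Toll-like receptors and cytosolic sensors can all lie upstream of this programme.

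Library totals ran from 2301913 to 7248939 assigned reads, and the limit set by a count of 3 corresponded to 0.419 to 1.24 CPM (assigned reads scaled to a common library size by TMM). The labelled subsets carried their defining transcripts. Lyve1 lay between 1727 and 4116 CPM in the 6 LYVE1+CX3CR1+ libraries, Itgax (the gene of CD11c) between 275 and 443 CPM in the 5 MHCII+CD11c+ libraries and at most 16.05 CPM elsewhere, and H2-Ab1 at 2654 CPM or more in all MHCII+ libraries and at most 36.8 CPM in the LYVE1+CX3CR1+ ones. Lyve1 was also present in the MHCII+CD11c- libraries, at 695 to 2458 CPM. At equal depth the 3 LYVE1+CX3CR1+ IC libraries held 13464, 13849 and 11547 genes with a count, and the other 14 libraries held 13816 to 17675.

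Promoter sequences, from RefSeq on GRCm38.p6 (the mm10 build) and running from 250 bases before to 50 bases after the start site, were at hand for 34 of the 46 genes. GAAA followed by 2 bases of any kind and GAAA again, or TTTC, 2 bases and TTTC where the element lies on the other strand, is the core of the element that ISGF3 binds. Those letters were found in 15 of the 34 promoters (44.1%) and in 1079 of all 27025 genes with a promoter in that source (3.99%). Overlapping matches were counted separately, and a gene with several windows held the letters if any window did. The promoters of Isg15, Ifit1, Oas1a and Irf7 are shown 5′ to 3′ along the gene's strand because these genes carry the comparisons below, and capitals mark the matches.
Isg15, chr4:156200769-156201068, minus strand, 3 matches: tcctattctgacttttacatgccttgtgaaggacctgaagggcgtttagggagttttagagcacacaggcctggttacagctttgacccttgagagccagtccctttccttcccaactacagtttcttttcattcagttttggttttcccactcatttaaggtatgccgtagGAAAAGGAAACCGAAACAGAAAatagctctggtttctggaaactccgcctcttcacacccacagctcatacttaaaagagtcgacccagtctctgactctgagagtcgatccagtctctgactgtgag
Ifit1, chr19:34640639-34640938, plus strand, 2 matches: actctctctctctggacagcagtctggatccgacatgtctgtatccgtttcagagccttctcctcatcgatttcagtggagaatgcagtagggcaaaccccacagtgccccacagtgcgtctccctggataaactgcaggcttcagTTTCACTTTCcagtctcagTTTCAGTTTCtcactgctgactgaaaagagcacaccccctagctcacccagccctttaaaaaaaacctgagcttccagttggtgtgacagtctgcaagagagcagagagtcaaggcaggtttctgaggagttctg
Oas1a, chr5:120907476-120907775, minus strand, 2 matches: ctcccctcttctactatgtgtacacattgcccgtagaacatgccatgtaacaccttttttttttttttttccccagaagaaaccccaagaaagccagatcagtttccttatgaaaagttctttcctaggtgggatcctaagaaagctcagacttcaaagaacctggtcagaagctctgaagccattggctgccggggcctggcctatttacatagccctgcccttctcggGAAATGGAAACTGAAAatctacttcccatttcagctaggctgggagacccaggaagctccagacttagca
Irf7, chr7:141266375-141266674, minus strand, 0 matches: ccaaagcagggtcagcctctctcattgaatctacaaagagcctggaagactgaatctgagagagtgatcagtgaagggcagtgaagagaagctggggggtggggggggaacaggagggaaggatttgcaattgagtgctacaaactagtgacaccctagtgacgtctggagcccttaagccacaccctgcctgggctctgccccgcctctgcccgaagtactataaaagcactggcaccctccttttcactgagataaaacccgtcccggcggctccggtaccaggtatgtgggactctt
In Isg15 and Oas1a the matches overlapped into 1 continuous run of GAAA blocks, whereas in Ifit1 they stood apart and on the opposite strand. These 4 windows are a description of letters, and no binding was measured.

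Per kilobase of exon, the 46 genes differed widely in level. Ifi27l2a, which encodes a small membrane protein, was highest at 694 CPM per kb averaged over the 6 groups, followed by Ifitm3, an inhibitor of viral entry, at 269, the secreted glycoprotein gene Lgals3bp at 83.3, the DNA sensor gene Ifi204 at 68.8 and the ubiquitin ligase gene Trim25 at 52.9 CPM per kb. The lowest was Ifi44 at 0.813 CPM per kb, followed by Herc6 at 2.29 CPM per kb and the RNA exonuclease gene Isg20 at 3.20 CPM per kb. Ifi44 had 0 counts in all 3 LYVE1+CX3CR1+ IC libraries, so no fold change is given for it within that subset.

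**Figure D1:**
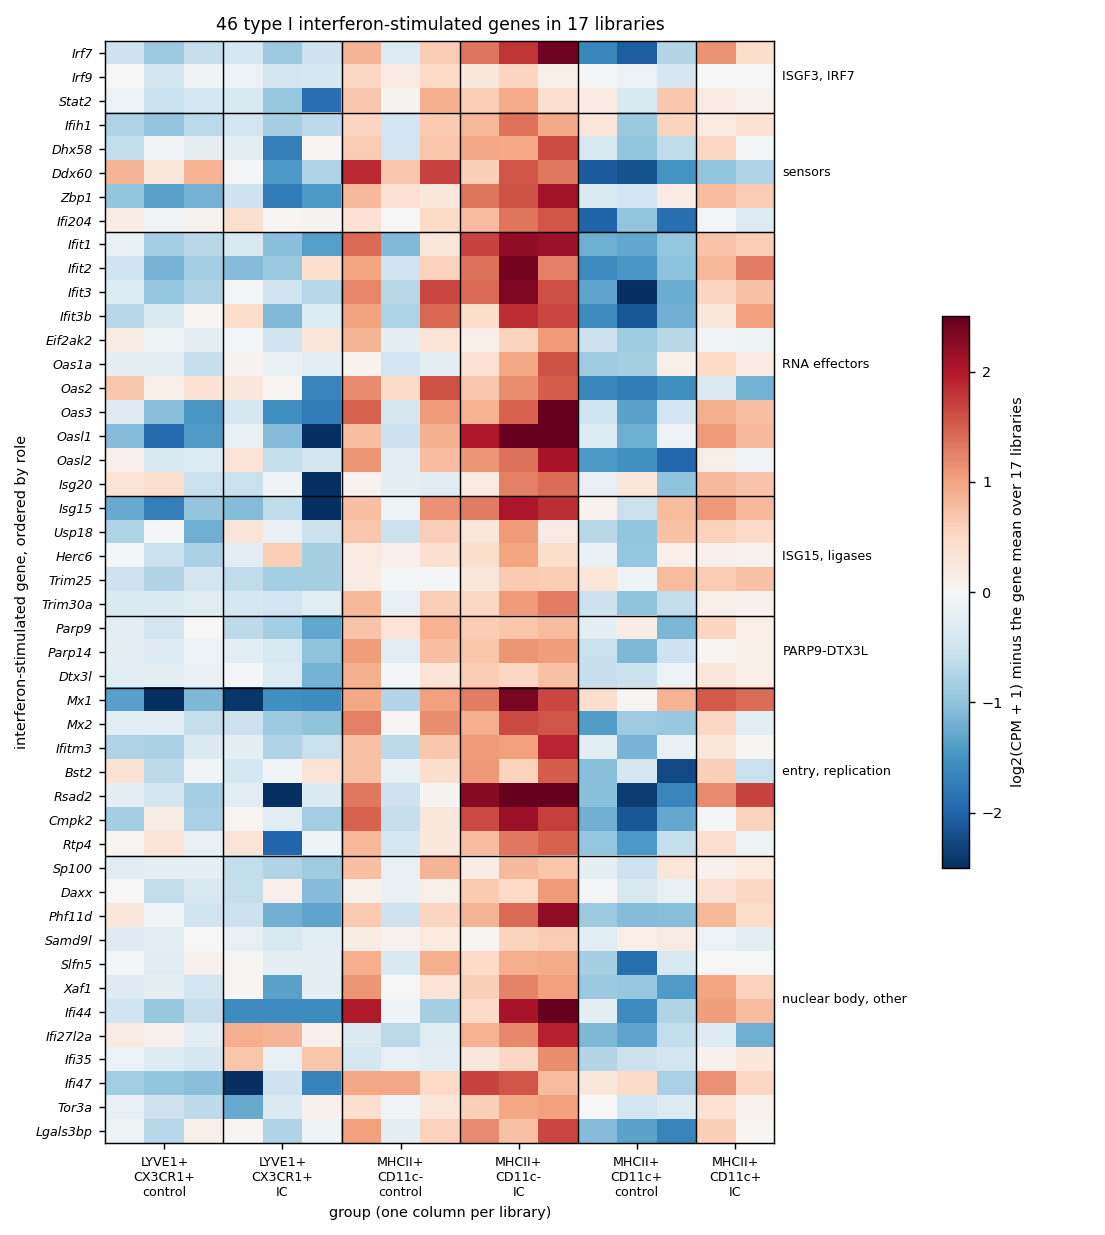
Level of the 46 interferon-stimulated genes (rows, grouped by role) in the 17 libraries (columns, grouped by subset and treatment), as log2(CPM + 1) minus the mean of that gene over all libraries; the colour scale ends at 2.5 log2 units on either side. The MHCII+CD11c- IC columns hold the highest group mean of 43 of the 46 genes.

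Averaged by group, 43 of the 46 genes had their highest mean level in MHCII+CD11c- macrophages after IC. None had its lowest mean there, whereas 25 were lowest in control MHCII+CD11c+ macrophages, 14 in LYVE1+CX3CR1+ macrophages after IC and 7 in control LYVE1+CX3CR1+ macrophages. These counts of group order were not set beside those over all genes tested. The median over the 46 genes of log2 CPM minus the gene's own mean was used to place each library. In LYVE1+CX3CR1+ macrophages it was -0.28, -0.40 and -0.45 in the control libraries and -0.25, -0.69 and -0.69 in the IC libraries. In MHCII+CD11c- macrophages it was 0.83, -0.22 and 0.57 in the control libraries and 0.77, 1.24 and 1.53 in the IC libraries. In MHCII+CD11c+ macrophages it was -0.57, -0.9998 and -0.62 in the control libraries and 0.47 and 0.23 in the IC libraries. By this measure control and IC libraries were separate in the MHCII+CD11c+ subset only, because control replicate 1 of the MHCII+CD11c- subset lay just above IC replicate 1, and control replicate 2 was the lowest library of both MHCII+ subsets.

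**Figure D2:**
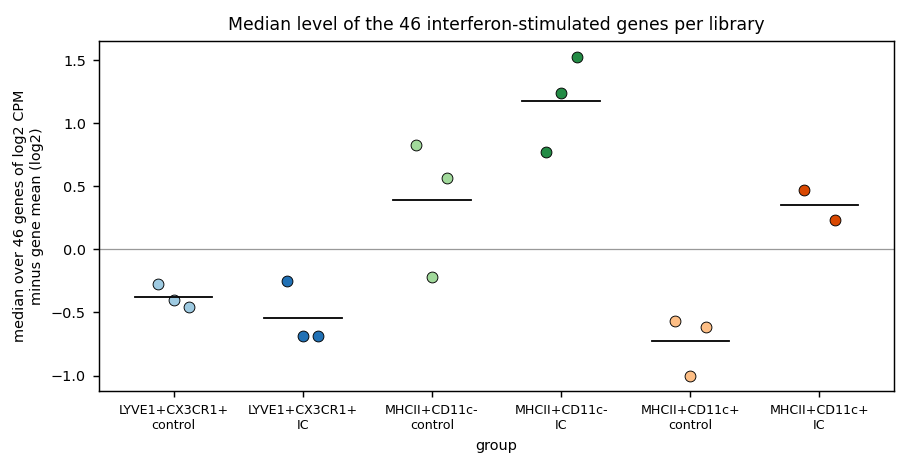
Median over the 46 interferon-stimulated genes of log2 CPM minus each gene's mean over the 17 libraries (vertical axis, log2 units), with 1 point per library and a bar at the group mean. The points of the MHCII+CD11c+ subset run from -0.9998 to -0.57 in controls and lie at 0.23 and 0.47 after IC, whereas those of the LYVE1+CX3CR1+ subset stay between -0.69 and -0.25.

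The first question was how each subset's interferon-stimulated genes differed 8 h after IC. In MHCII+CD11c+ macrophages 3 of the 46 genes rose, namely Irf7, Ifi204 and Ifit2, and none fell at an adjusted p under 0.05 in edgeR's quasi-likelihood test. Over all genes tested, 0.216% were called higher in this contrast. Irf7 was at 23.6, 17.3 and 44.6 CPM in the control libraries and at 166 and 102 CPM in the IC libraries. Both IC libraries were above every control library, and the log2 fold change was 2.26 ± 0.40 (SE, adjusted p = 0.0244), a 4.79-fold difference. Ifi204 was at 51.3, 105 and 55.6 CPM in controls and at 205 and 165 CPM after IC, a log2 fold change of 1.39 ± 0.26 (SE, adjusted p = 0.0244). Ifit2, whose product binds RNA and blocks its translation, was at 11.7, 13 and 17.8 CPM in controls and at 66.7 and 92.5 CPM after IC, a log2 fold change of 2.504 ± 0.474 (SE, adjusted p = 0.029). These 3 calls rest on 2 IC libraries: none of the 46 genes was called without IC replicate 1 or without control replicate 1, and 1 was called without IC replicate 2 or without control replicate 3.

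Most of the other genes moved the same way in MHCII+CD11c+ macrophages without passing the threshold. The log2 fold change was above 0 for 44 of the 46 genes (51.1% of all genes tested), with a median of 0.94 against 0.01 over all genes tested. At an unadjusted p under 0.05, 31 genes were higher and 0 lower, where 3.71% and 1.5% of all genes tested were. Every IC library was above every control library for 36 of the 46 genes, and for 14.1% of all genes tested. The largest fold change was that of Rsad2, which encodes viperin, an enzyme that makes a chain-terminating nucleotide, with 16.4, 5.94 and 10.6 CPM in controls and 81.4 and 115 CPM after IC. Its log2 fold change of 3.17 ± 0.87 (SE) did not pass (adjusted p = 0.411). The lowest values were those of Samd9l, at -0.27 ± 0.20 (SE, adjusted p = 1), and Stat2, at -0.07 ± 0.34 (SE, adjusted p = 1).

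In MHCII+CD11c- macrophages 3 of the 46 genes rose, here Ifi27l2a, Zbp1 and Oas1a, and none fell, where 0.543% of all genes tested were called higher. Ifi27l2a was at 210, 169 and 220 CPM in controls and at 496, 622 and 1034 CPM after IC, with no overlap, and its log2 fold change was 1.85 ± 0.29 (SE, adjusted p = 0.00406). Zbp1, the sensor of Z-form nucleic acid that can trigger cell death, was at 92.8, 68.2 and 62.9 CPM in controls and at 134, 159 and 229 CPM after IC, a log2 fold change of 1.22 ± 0.28 (SE, adjusted p = 0.0417). Oas1a, an oligoadenylate synthetase that activates RNase L, was at 54.8, 36.9 and 43.8 CPM in controls and at 67.4, 102 and 157 CPM after IC, a log2 fold change of 1.27 ± 0.30 (SE, adjusted p = 0.0489). Ifi27l2a was called under all 13 alternatives (adjusted p 3.2e-06 to 0.0333), Zbp1 under 7 of 13 (0.00637 to 0.343) and Oas1a under 5 of 13 (0.0117 to 0.433). The count of 3 fell to 1 without control replicate 2, control replicate 3, IC replicate 2 or IC replicate 3, each in turn, and rose to 6 without IC replicate 1.

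Here too the log2 fold change was above 0 for 44 of the 46 genes, against 47.8% of all genes tested, with a median of 0.74 against -0.03 over all genes tested. At an unadjusted p under 0.05, 24 genes were higher (5.19% of all genes tested) and 0 were lower (4.81%), and for 23 genes every IC library was above every control library (8.72%). Irf7 was at 137, 59.4 and 117 CPM in controls and at 190, 262 and 407 CPM after IC. Its libraries did not overlap, but its log2 fold change of 1.46 ± 0.35 (SE) did not pass (adjusted p = 0.0752). Irf9 and Ddx60 were the 2 genes with values below 0, at -0.10 ± 0.20 (SE, adjusted p = 0.949) and -0.28 ± 0.34 (SE, adjusted p = 0.902).

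For 19 of the 46 genes every IC library was above every control library in both MHCII+ subsets, where 3.22% of all genes tested showed this. They were Irf7, the sensors Dhx58, Zbp1 and Ifi204, the RNA effectors Ifit1, Ifit2, Oas1a, Oasl1, Oasl2 and Isg20, the ubiquitin-like modifier Isg15, the inhibitors Mx1, Ifitm3, Rsad2 and Cmpk2, and Daxx, Phf11d, Ifi35 and Tor3a. The 2 subsets have separate control and IC libraries, although whether a mouse gave cells to both is not given in the sources used here. Isg15, for example, was at 32.8, 17.5 and 43.5 CPM in MHCII+CD11c- controls and at 48.3, 80.3 and 71.8 CPM after IC, and at 20.4, 12.6 and 34.04 CPM in MHCII+CD11c+ controls and at 41.6 and 34.1 CPM after IC. Its log2 fold changes, 1.10 ± 0.49 and 0.78 ± 0.54 (SE), did not pass in either subset (adjusted p = 0.444 and adjusted p = 1).

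**Figure D3:**
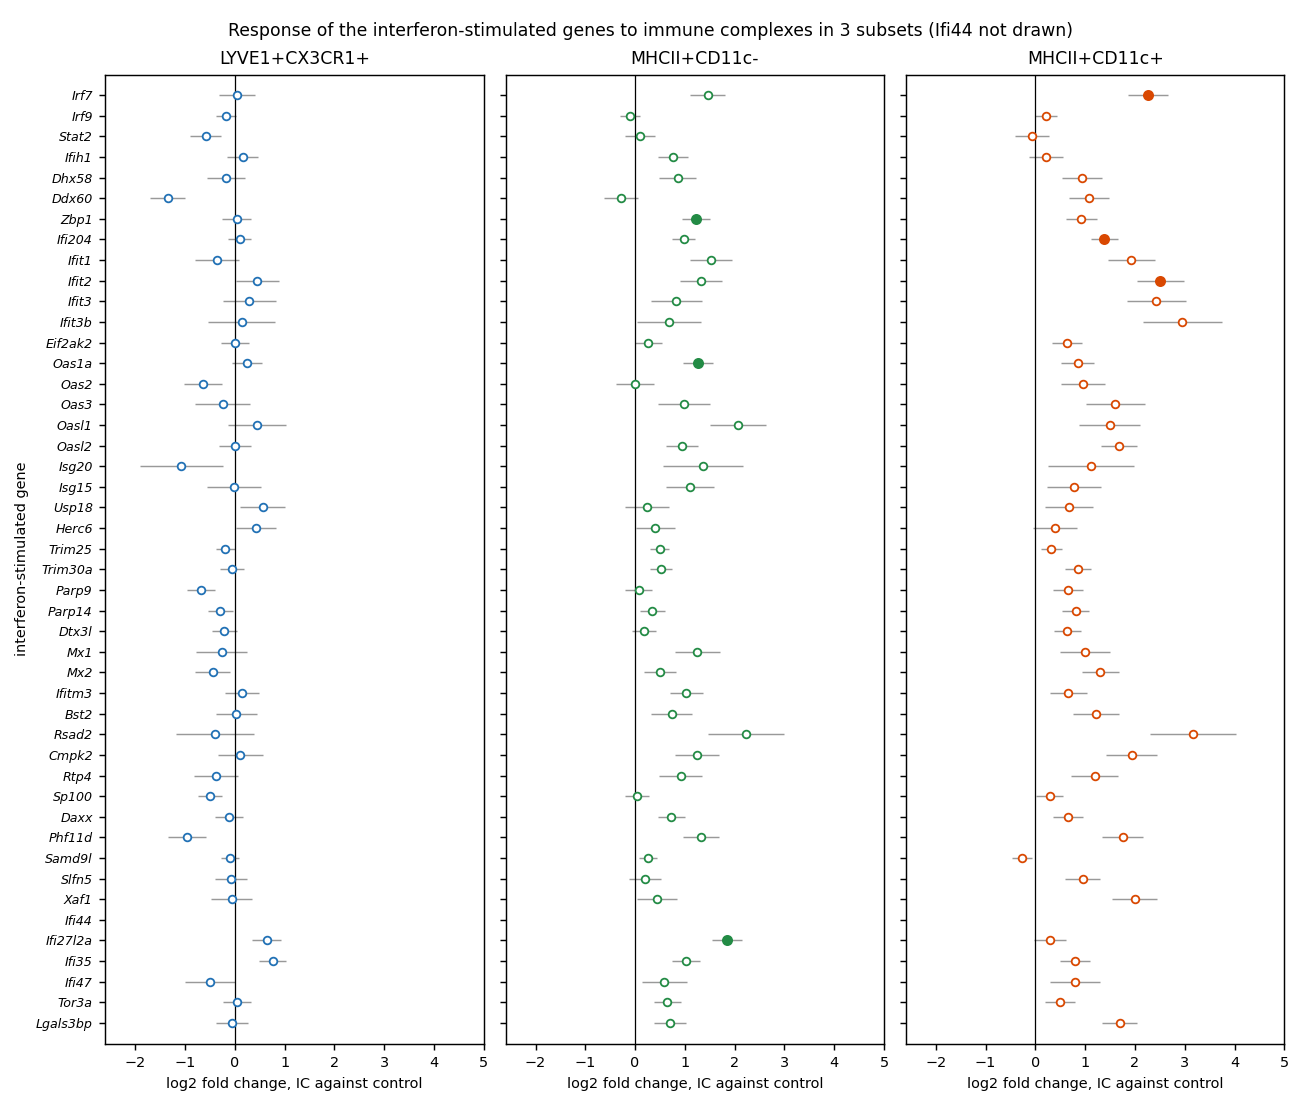
Log2 fold change, IC against control, of the interferon-stimulated genes (rows) in the 3 subsets (panels), with standard errors from edgeR's quasi-likelihood fit as horizontal bars. Filled points have an adjusted p under 0.05 (3 in MHCII+CD11c-, 3 in MHCII+CD11c+, 0 in LYVE1+CX3CR1+); Ifi44 is not drawn because it had 0 counts in all LYVE1+CX3CR1+ IC libraries.

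In LYVE1+CX3CR1+ macrophages none of the 46 genes was called in either direction by edgeR, where 0.963% of all genes tested were. At an unadjusted p under 0.05, 2 were higher and 4 lower (2.81% and 11.3% of all genes tested). DESeq2 called 0 higher and 1 lower, for which the share of all genes called is not given here. The median log2 fold change of the 46 genes was -0.07, against -0.14 over all genes tested, and 19 of the 46 lay above 0 (40.3% of all genes tested). Irf7 was at 52.4, 39.7 and 49.8 CPM in controls and at 55.6, 39.3 and 52.3 CPM after IC, a log2 fold change of 0.05 ± 0.36 (SE, adjusted p = 0.986), and its libraries overlapped. No gene of the 46 had all IC libraries above all controls (4.95% of all genes tested), and 5 had all of them below: Ddx60, Parp9, Sp100, Phf11d and Ifi44 (16.7%). For Ifi44 the control mean of 0.873 CPM was itself under the mean limit of the IC libraries, 1.02 CPM, so a lower level is not shown.

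The 3 members with the smallest p in each direction in the LYVE1+CX3CR1+ subset were Ifi35, Ifi27l2a and Usp18 above 0, and Ddx60, Phf11d and Parp9 below 0. Ifi35 was at 37.96, 33.5 and 31.1 CPM in controls and at 68.5, 36.8 and 68.4 CPM after IC, a log2 fold change of 0.76 ± 0.28 (SE, adjusted p = 0.202). Ifi27l2a had a log2 fold change of 0.64 ± 0.29 (SE, adjusted p = 0.315) and Usp18, the protease that removes ISG15 and dampens the receptor, 0.56 ± 0.45 (SE, adjusted p = 0.634). Ddx60, a helicase linked to RNA sensing, was at 113, 75.9 and 115 CPM in controls and at 60.9, 22.3 and 36.1 CPM after IC, a log2 fold change of -1.35 ± 0.36 (SE, adjusted p = 0.0757). Phf11d was at -0.95 ± 0.38 (SE, adjusted p = 0.24) and Parp9 at -0.68 ± 0.28 (SE, adjusted p = 0.262). Without IC replicate 1, 1 gene was called, which is the only library of this subset whose removal changed the count of 0.

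Other transcripts also differed between the LYVE1+CX3CR1+ control and IC libraries. The 4 marker genes of the MHCII+ subsets summed to 102 to 156 CPM in controls and to 19.8 to 49.2 CPM after IC, and 3 of the 4 fell. The 7 listed markers of conventional dendritic cells summed to 19.5 to 23.4 CPM in controls and to 6.61 to 12.03 CPM after IC. The 6 measured markers of plasmacytoid dendritic cells summed to 32.4 to 44.4 CPM in controls and to 3.51 to 44.8 CPM after IC, which overlap, and 1 of them, Siglech, fell with a log2 fold change of -3.42 ± 0.73 (SE, adjusted p = 0.0225). The part of these transcripts in the values of the 46 genes was not tested. In bulk libraries, fewer cells of a kind and less RNA per cell cannot be told apart.

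Averaged over the 3 subsets, 11 of the 46 genes rose after IC and none fell, where 1.7% of all genes tested were called higher and 1.65% lower. The median log2 fold change was 0.56, against -0.07 over all genes tested. The 11 genes, with their log2 fold change and SE, were the factor gene Irf7 at 1.25 ± 0.21, the sensors Zbp1 at 0.72 ± 0.17 and Ifi204 at 0.82 ± 0.14, the RNA effectors Ifit1 at 1.03 ± 0.26, Ifit2 at 1.43 ± 0.25, Oas1a at 0.78 ± 0.18 and Oasl2 at 0.88 ± 0.19, the nucleotide kinase Cmpk2 at 1.10 ± 0.27, and Ifi27l2a at 0.93 ± 0.17, Ifi35 at 0.86 ± 0.17 and Lgals3bp at 0.78 ± 0.19. Their adjusted p ran from 0.0015 for Ifi204 to 0.032 for Lgals3bp. Ifi204, Irf7, Ifit2, Ifi35 and Ifi27l2a were called under all 24 alternatives, Oas1a, Oasl2 and Zbp1 under 23, Cmpk2 under 17, and Ifit1 and Lgals3bp under 14. Without MHCII+CD11c+ IC replicate 1 the count was 6. The test treated all libraries as independent, and whether libraries of different subsets came from the same mice is not given in the sources used here. All 16 pairs of same-numbered libraries of the same treatment correlated above 0 in their deviations from group means. Libraries that share mice would not be separate replicates, so the count of 11 may be too high.

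A mean over the MHCII+ subsets alone, added after the data had been seen, called 15 of the 46 genes higher and none lower, where 1.09% of all genes tested were called higher. It held Irf7, Zbp1, Ifi204, Ifit1, Ifit2, Oas1a, Oasl2, Cmpk2, Ifi27l2a, Ifi35 and Lgals3bp, and in addition Trim30a, Rsad2, Phf11d and Xaf1. The median log2 fold change of the 46 genes was 0.92, against -0.01 over all genes tested. Libraries of both subsets were again treated as independent, so the same limit holds for the count of 15.

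By role, the RNA-binding and RNA-degrading effectors held 4 of the 11 genes called in the mean response, out of 11 in that class. Over all genes tested, 1.7% were called higher in that response, the share to set beside each class below. All 11 of these effectors had a log2 fold change above 0 in the MHCII+CD11c- and the MHCII+CD11c+ subset (47.8% and 51.1% of all genes tested). Their median was 0.99 in the MHCII+CD11c- and 1.61 in the MHCII+CD11c+ subset, against 0.01 in LYVE1+CX3CR1+ macrophages. The inhibitors of entry and replication had medians of 1.03, 1.21 and -0.27 in the same order, with 1 of 7 called in the mean response. The nucleic acid sensors had medians of 0.86, 0.94 and 0.03, with 2 of 5 called. The ISG15 system and ubiquitin ligases had medians of 0.49, 0.68 and -0.01 with 0 of 5 called, the PARP9-DTX3L class 0.18, 0.65 and -0.30 with 0 of 3 called, and the nuclear body proteins and others 0.67, 0.79 and -0.08 with 3 of 12 called. Rigi, the RNA sensor outside the count, had log2 fold changes of 0.41 ± 0.26, 1.13 ± 0.29 and -0.23 ± 0.27 (SE) in that order, none of which passed (adjusted p = 0.682, adjusted p = 0.164 and adjusted p = 0.77).

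The 3 factors of the list differed from each other. Irf7 rose in the mean response, whereas Irf9 and Stat2, which encode parts of ISGF3, were not called in any subset. Irf9 was at 124, 100 and 122 CPM in MHCII+CD11c- controls and at 103, 125 and 95.5 CPM after IC, and at 82.5, 77.8 and 63.9 CPM in MHCII+CD11c+ controls and at 86.4 and 86.3 CPM after IC. In LYVE1+CX3CR1+ macrophages its log2 fold change was -0.18 ± 0.20 (SE, adjusted p = 0.763). Stat2 had log2 fold changes of -0.58 ± 0.31, 0.09 ± 0.30 and -0.07 ± 0.34 (SE) in the LYVE1+CX3CR1+, the MHCII+CD11c- and the MHCII+CD11c+ subset, with adjusted p = 0.419, adjusted p = 0.967 and adjusted p = 1.

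**Figure D4:**
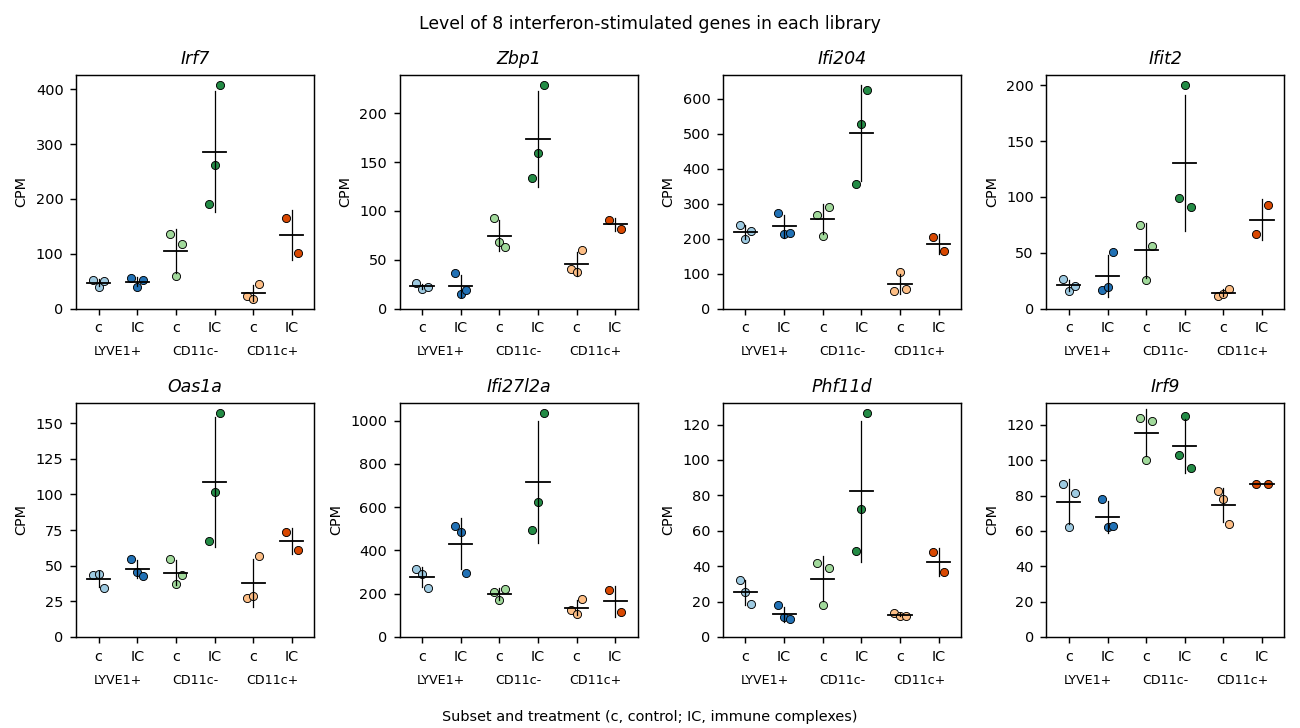
Level (CPM, linear axis from 0) of 8 interferon-stimulated genes in each library, by subset and by treatment (c, control; IC, immune complexes); bars are group means and vertical lines 1 SD. Irf7, Zbp1, Ifi204, Ifit2, Oas1a and Ifi27l2a are the genes called in a single subset, Phf11d lies lower after IC in LYVE1+CX3CR1+ and higher in both MHCII+ subsets, and Irf9 overlaps between control and IC in LYVE1+CX3CR1+ and MHCII+CD11c- macrophages.

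Whether the response to IC differed between subsets was tested by interaction terms. By edgeR, none of the 46 genes was called for LYVE1+CX3CR1+ against MHCII+CD11c- or against MHCII+CD11c+, where 0.0262% and 0.0327% of all genes tested were called, nor for MHCII+CD11c+ against MHCII+CD11c-, where 0% were. At an unadjusted p under 0.05, 15 genes were lower and 0 higher in the first (6.14% and 1.41% of all genes tested), 24 lower and 0 higher in the second (6.87% and 1.15%), and 3 higher and 1 lower in the third (2.06% and 1.19%). DESeq2 called 0, 2 and 0 genes in these 3 tests, and with surrogate variables the first and second called 2 and 7. For these alternatives the share of all genes called is not given here. The median difference of log2 fold changes was -0.85, -1.14 and 0.39, against -0.16, -0.21 and 0.05 over all genes tested. The first and second of these share the LYVE1+CX3CR1+ libraries. Without LYVE1+CX3CR1+ IC replicate 1 or without MHCII+CD11c+ control replicate 2, the second called 1 gene.

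Phf11d, which encodes a PHD finger protein, had the smallest p in both comparisons of LYVE1+CX3CR1+ with an MHCII+ subset. It was at 32.3, 25.1 and 18.4 CPM in LYVE1+CX3CR1+ controls and at 17.8, 11.02 and 9.96 CPM after IC. In MHCII+CD11c- macrophages it was at 42.02, 18.2 and 38.8 CPM in controls and at 48.3, 72.1 and 126 CPM after IC, and in MHCII+CD11c+ macrophages at 13.6, 11.9 and 12.1 CPM in controls and at 47.9 and 36.6 CPM after IC. The libraries did not overlap in any of the 3 subsets, with IC below control in the first and above it in the others. The differences of log2 fold changes were -2.27 ± 0.53 (SE, adjusted p = 0.198) against MHCII+CD11c- and -2.71 ± 0.56 (SE, adjusted p = 0.0877) against MHCII+CD11c+ macrophages. Against the mean of both MHCII+ subsets, a contrast added after the data had been seen, the difference was -2.49 ± 0.47 (SE, adjusted p = 0.0462), and Phf11d was the 1 gene of the 46 that edgeR called lower (0.0393% of all genes tested). Over its transcript, 7.05% of 100-base windows were shared with Phf11a, Phf11b or Phf11c.

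The subsets differed in these genes already in control mice. In control MHCII+CD11c+ macrophages 22 of the 46 genes were lower and none was higher than in control MHCII+CD11c- macrophages, where 4.99% of all genes tested were called lower. The median log2 difference was -1.07, against -0.03 over all genes tested, and for 27 genes every MHCII+CD11c+ library was below every MHCII+CD11c- library (14.9%). The largest difference was that of Ddx60, at 14.04, 13 and 21.6 CPM in MHCII+CD11c+ and at 231, 101 and 204 CPM in MHCII+CD11c- controls, a log2 difference of -3.48 ± 0.39 (SE, adjusted p = 1.04e-05). Oas2 was at 21.5, 19.7 and 23.1 CPM and at 157, 96.1 and 208 CPM, a log2 difference of -2.84 ± 0.42 (SE, adjusted p = 0.000286). The other genes without overlap among the 8 with the smallest p were Ifi204 at -1.86 ± 0.25, Oasl2 at -2.28 ± 0.34, the GTPase gene Mx2 at -2.05 ± 0.35, Lgals3bp at -1.89 ± 0.33, Trim30a at -1.20 ± 0.23 and Parp14 at -1.32 ± 0.26 (log2 difference, SE). Without MHCII+CD11c- control replicate 1 the count was 12, and leaving out any other library of these groups left 15 or more.

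Against control MHCII+CD11c- macrophages, 5 of the 46 genes were lower in control LYVE1+CX3CR1+ macrophages and none was higher (1.22% of all genes tested were called lower). Zbp1 was at 25.8, 20 and 22.5 CPM in LYVE1+CX3CR1+ and at 92.8, 68.2 and 62.9 CPM in MHCII+CD11c- controls, a log2 difference of -1.71 ± 0.29 (SE, adjusted p = 0.00222). The GTPase gene Mx1 was at 12.3, 3.78 and 14.5 CPM and at 65.7, 19.4 and 68.5 CPM, a log2 difference of -2.28 ± 0.49 (SE, adjusted p = 0.0227). The others were Isg15 at -2.08 ± 0.52, Mx2 at -1.33 ± 0.34 and the GTPase gene Ifi47 at -1.91 ± 0.48 (log2 difference, SE). The median over the 46 genes was -0.82, and 19 genes had every LYVE1+CX3CR1+ library below every MHCII+CD11c- library (10.3%). The count was 15 without MHCII+CD11c- control replicate 2, and 1 without any other single library of these groups. Ifi27l2a was the only gene of the 46 with all libraries of the LYVE1+CX3CR1+ group above the other (11.3% of all genes tested), and it was not called.

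Against control MHCII+CD11c+ macrophages, 6 of the 46 genes were higher and 5 lower in control LYVE1+CX3CR1+ macrophages, where 7.83% and 7.4% of all genes tested were called. The higher ones were Ddx60 at 2.67 ± 0.38, Oas2 at 2.10 ± 0.41, Ifi204 at 1.63 ± 0.24, Oasl2 at 1.45 ± 0.33, Ifi27l2a at 1.03 ± 0.29 (log2 difference, SE) and Lgals3bp. The lower ones were Mx1 at -2.15 ± 0.49, Zbp1 at -0.999 ± 0.291, Trim25 at -0.94 ± 0.19 (log2 difference, SE), Isg15 and the RNA sensor gene Ifih1. The median over the 46 genes was 0.38, against 0.05 over all genes tested. Without any single LYVE1+CX3CR1+ control library the count of 11 became 7. The counts in this comparison lay not far above the shares of all genes tested, so they are not read as a trait of the 46 genes. The 3 comparisons of control groups share their libraries in pairs, so their counts are not independent of each other.

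After IC, 37 of the 46 genes were lower in the LYVE1+CX3CR1+ subset than in the MHCII+CD11c- one and none was higher, where 4.79% of all genes tested were called lower. All 46 log2 differences were below 0, where 42% of all genes tested were above it, with a median of -1.64 against -0.14 over all genes tested, and 40 genes had every LYVE1+CX3CR1+ library below every MHCII+CD11c- library (15.7%). Zbp1 was at 36.3, 14.8 and 18.7 CPM in the former and at 134, 159 and 229 CPM in the latter, a log2 difference of -2.89 ± 0.31 (SE, adjusted p = 2.37e-06). Mx1 was at 5.27, 10.7 and 10.4 CPM and at 80.9, 176 and 107 CPM, a log2 difference of -3.80 ± 0.53 (SE, adjusted p = 0.000381). Irf7 at -2.54 ± 0.37, Ifit1 at -3.003 ± 0.459, Phf11d at -2.65 ± 0.39, Mx2 at -2.27 ± 0.35, Trim25 at -1.30 ± 0.19 and Trim30a at -1.39 ± 0.24 (log2 difference, SE) also had no overlap. Ifi44 had 0 counts in the LYVE1+CX3CR1+ IC libraries, where the mean limit of 3 counts per library was 1.02 CPM. In the MHCII+CD11c- ones it was at 3.10, 11.3 and 43.5 CPM. The mean of these was 18.9 times that limit, drawn up by the highest library. The count of 37 became 23 without MHCII+CD11c- IC replicate 3 and 19 with voom and quality weights, which gave the 3 LYVE1+CX3CR1+ IC libraries weights of 0.721, 0.780 and 0.392.

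Against MHCII+CD11c+ macrophages after IC, 14 of the 46 genes were lower in LYVE1+CX3CR1+ macrophages (8.42% of all genes tested) and 1, Ifi27l2a, was higher (3.52%). Ifi27l2a was at 511, 486 and 297 CPM in LYVE1+CX3CR1+ and at 217 and 115 CPM in MHCII+CD11c+ macrophages, a log2 difference of 1.38 ± 0.33 (SE, adjusted p = 0.0102). Among the lower ones, Trim25 was at 176, 153 and 155 CPM against 428 and 459 CPM, a log2 difference of -1.46 ± 0.21 (SE, adjusted p = 3.9e-05). Zbp1 at -1.88 ± 0.32, Mx1 at -3.41 ± 0.55, Ifi47 at -2.42 ± 0.53, Parp9 at -1.29 ± 0.31, Phf11d at -1.70 ± 0.41 and Isg15 at -2.37 ± 0.57 (log2 difference, SE) were further genes without overlap. The count of 15 became 4 without MHCII+CD11c+ IC replicate 1 and 8 without MHCII+CD11c+ IC replicate 2. Between the MHCII+ subsets after IC, 5 genes were lower in MHCII+CD11c+ macrophages and none was higher (1.75% of all genes tested were called lower): Ifi27l2a at -2.11 ± 0.35, Ifi204 at -1.44 ± 0.28, Ddx60 at -2.13 ± 0.42, Oasl2 at -1.54 ± 0.38 and Oas2 at -1.89 ± 0.46 (log2 difference, SE). That count became 1 and 2 without MHCII+CD11c+ IC replicate 2 and 1, 3 without MHCII+CD11c- IC replicate 3, and 8 without MHCII+CD11c- IC replicate 1.

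The genes that lie upstream were also examined. Of 20 listed type I and III interferon genes, 4 had a row and 2 passed the filter on low counts. Ifnb1, the gene of interferon beta, had 0 counts in all 6 LYVE1+CX3CR1+ libraries, 1, 0 and 9 counts in MHCII+CD11c- controls and 0, 0 and 11 after IC, and 20, 4 and 13 counts in MHCII+CD11c+ controls and 10 and 4 after IC. Its control and IC libraries overlapped in every subset that had counts. Of the receptor genes, Ifnar1 had a log2 fold change in the mean response of 0.17 ± 0.10 (SE, adjusted p = 0.405) and Ifnar2 one of 0.02 ± 0.14 (SE, adjusted p = 0.971).

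Of 15 sensors, adaptors and interferon regulatory factors that induce interferon, 2 rose in the mean response and none fell. Over all genes tested, 1.7% were called higher and 1.65% lower in that response. The 2 were the RNA receptor gene Tlr8 at 0.68 ± 0.15 (SE, adjusted p = 0.0147) and the kinase gene Ikbke at 0.98 ± 0.27 (SE, adjusted p = 0.0489). Ikbke was at 31.6, 36.2 and 47.1 CPM in MHCII+CD11c- controls and at 81.6, 91.1 and 203 CPM after IC, and at 30.4, 26.5 and 24 CPM in LYVE1+CX3CR1+ controls and at 37.2, 27.1 and 13.3 CPM after IC. Tlr9, the receptor for unmethylated DNA, fell in LYVE1+CX3CR1+ macrophages, from 25.99, 19.7 and 30.3 CPM to 9.65, 6.92 and 5.39 CPM, by a log2 fold change of -1.78 ± 0.37 (SE, adjusted p = 0.0197). None of the 10 negative regulators tested was called in an IC contrast or in the mean response. Of 15 genes induced mainly by interferon gamma, Tgtp2 fell in LYVE1+CX3CR1+ macrophages, at -3.89 ± 0.63 (SE, adjusted p = 0.00241), with 8.5, 6.22 and 5.86 CPM in controls and 1.17, 0 and 0 CPM after IC. These IC libraries lay near or under their mean limit of 1.02 CPM, so the size of the fall is uncertain. By edgeR's interaction terms its response differed from that in MHCII+CD11c- by -4.72 ± 0.74 (SE, adjusted p = 0.0116). The difference from MHCII+CD11c+ was -4.79 ± 0.76 (SE, adjusted p = 0.00738). Both rest on the same low IC libraries. In those subsets its log2 fold changes of 0.82 ± 0.38 and 0.90 ± 0.42 (SE) did not pass. Ciita, the activator of MHC class II genes, fell in MHCII+CD11c- macrophages, from 214, 165 and 242 CPM to 64.97, 84.1 and 42.4 CPM, at -1.69 ± 0.35 (SE, adjusted p = 0.0316), and in the mean response at -1.18 ± 0.30 (SE, adjusted p = 0.04).

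Markers of other cells summed to less than those of macrophages, and some moved with the groups. The 6 plasmacytoid dendritic cell markers in the table, a cell type known for producing type I interferon, summed to 87.3 to 153 CPM in MHCII+CD11c- controls and to 56.1 to 100.5 CPM after IC, and to 23.6 to 65.7 and 13.8 to 26.02 CPM in the MHCII+CD11c+ groups. The 8 neutrophil markers summed to 39.8 to 243 CPM and 69.6 to 120 CPM in MHCII+CD11c- and to 80.99 to 328 CPM and 25.7 to 29.9 CPM in MHCII+CD11c+ controls and IC libraries. The 7 monocyte markers summed to 346 to 547 CPM and 411 to 537 CPM, and to 590 to 1207 CPM and 802 to 1052 CPM, in the same order. Conventional dendritic cell markers summed to 95.96 to 245 CPM in MHCII+CD11c- controls and to 77.1 to 85.6 CPM after IC, without overlap. In MHCII+CD11c+ macrophages they summed to 255 to 650 CPM in controls and to 279 to 411 CPM after IC. The 8 macrophage markers summed to 2844 to 4092 CPM in MHCII+CD11c+ controls and to 4524 to 5844 CPM after IC, without overlap. The 5 LYVE1+CX3CR1+ markers summed to 988 to 1721 CPM in MHCII+CD11c- controls and to 1817 to 3293 CPM after IC. In MHCII+CD11c+ macrophages these 5 summed to 57.5 to 581 CPM in controls and to 266 to 559 CPM after IC, which overlap. Of them, Timd4 rose there, with a log2 fold change of 2.15 ± 0.36 (SE, adjusted p = 0.0113 by edgeR). The part of all these markers in the differences of the 46 genes was not tested.

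Several of these genes cannot be counted cleanly where reads are shared. Of the 46 genes, 8 shared over 5% of the 100-base windows of a transcript with another gene, with Oas1a at 40.9% (Oas1g), Ifit3 at 31.7% and Ifit3b at 27.4% (each other), Herc6 at 20.9% and Ifi204 at 16.8% (neighbouring genes of its family) the highest. Exons of 10 genes overlapped a gene on the opposite strand, among them Irf7 with Phrf1 and Parp9 with Dtx3l, and those of 6 overlapped a gene on the same strand, among them Irf9 with Rnf31. The library kit marks strand, but whether the counting used it is not given in the sources used here.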

How the data were processed

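Total RNA (5 ng) of sorted synovial macrophages was made into stranded libraries and sequenced, and the authors trimmed reads with Trim Galore, checked them with FastQC, mapped them on mm10 using HISAT2 and obtained gene totals from featureCounts. The deposited values are raw counts per gene, in 17 columns that matched a labelled sample; 1 further column matched none and was not used. Strand setting, annotation and tool versions of these steps are not given in the sources used here.

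Counts were normalised by TMM and tested with edgeR 4.0.16 (R 4.3.3) by quasi-likelihood F tests over 15272 genes passing filterByExpr (minimum count 10), with 1 mean per group over all 17 libraries and 11 residual degrees of freedom. p-values were adjusted by Benjamini-Hochberg over all genes tested and called at 0.05. The SE is the log2 fold change divided by the square root of F. p-values measure the spread between libraries, which may be technical, since what separates replicates is not given. Alternatives used limma 3.58.1, DESeq2 1.42.0 and sva 3.50.0, the last with 5 surrogate variables for the 17 libraries.

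The 46 genes, the pathway and marker lists and the tests were chosen with earlier results of these data known. Genes were named by rule: those called in an IC, mean IC or interaction contrast; up to 8 called with the smallest p and no overlap between subsets; the 3 with the smallest p in each direction per IC contrast; Irf7, Irf9, Stat2, Ifnar1, Ifnar2 and Ifnb1 (1 more gene of this set is not reported here); and the 5 with the highest level per length. Rsad2, Isg15 and Phf11d, and the lowest-level genes, were described further after their values were seen. Gene positions and exon lengths came from GENCODE M21 (GRCm38). Depth limits and the precision of counts are those of counting error only.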

Additional observations from a re-analysis of the deposited data

Results flagged for a closer look

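In edgeR's quasi-likelihood fit, the response of Phf11d to IC was called different between LYVE1+CX3CR1+ and the mean of both MHCII+ subsets. That contrast was added after the data had been seen. The planned interactions by the same test did not pass, at adjusted p = 0.198 against MHCII+CD11c- and adjusted p = 0.0877 against MHCII+CD11c+. They used the same libraries, so the added contrast is no separate evidence. The difference of log2 fold changes was -2.49 ± 0.47 (SE, adjusted p = 0.0462), where 7 of all genes tested were called.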

How the results depend on the processing

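Counts of called genes moved by over 1.5 times under several alternatives; in each case the cause was not tested. With DESeq2 they were 1 (LYVE1+CX3CR1+ IC), 9 (MHCII+CD11c- IC), 9 (MHCII+CD11c+ IC), 16 (LYVE1+CX3CR1+ against MHCII+CD11c-, control), 12 (MHCII+CD11c+ against MHCII+CD11c-, after IC) and 2 (interaction of LYVE1+CX3CR1+ with MHCII+CD11c+). With surrogate variables they were 1, 13 and 6 for IC in the 3 subsets, 24 for the mean response, 23 (LYVE1+CX3CR1+ against MHCII+CD11c+, after IC), 8 (MHCII+CD11c+ against MHCII+CD11c-, after IC), and 2 and 7 for the interactions of LYVE1+CX3CR1+ with MHCII+CD11c- and MHCII+CD11c+. With voom and quality weights they were 9 (MHCII+CD11c- IC), 19 (LYVE1+CX3CR1+ against MHCII+CD11c-, control), 19 (the same after IC) and 19 (MHCII+CD11c+ against MHCII+CD11c-, after IC). With RLE size factors they were 1 and 1 for IC in the MHCII+ subsets. With only the groups compared they were 10 (LYVE1+CX3CR1+ against MHCII+CD11c-, control) and 18 (MHCII+CD11c+ against MHCII+CD11c-, after IC). The light filter gave 1 for the interaction of LYVE1+CX3CR1+ with MHCII+CD11c+, and the mean of both MHCII+ subsets as partner, chosen after seeing the data, gave 1 for that with MHCII+CD11c-.

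Leaving out 1 library each, the counts ran from 0 to 1, 1 to 6 and 0 to 2 for IC in the LYVE1+CX3CR1+, the MHCII+CD11c- and the MHCII+CD11c+ subset, and from 6 to 15 for the mean response. In controls they ran from 1 to 15 for LYVE1+CX3CR1+ against MHCII+CD11c-, 7 to 10 for LYVE1+CX3CR1+ against MHCII+CD11c+ and 12 to 27 for MHCII+CD11c+ against MHCII+CD11c-, after IC from 23 to 37, 4 to 16 and 1 to 8, and for the interactions from 0 to 0, 0 to 1 and 0 to 0. Without a library of the MHCII+CD11c+ IC group, the remaining 1 is assumed to vary like the other groups.

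Same-numbered libraries of the same treatment correlated at 0.00129 to 0.286 in their deviations from group means. Only 2 of the 16 pairs passed the limit of 0.1 set for pairing, and the block was kept as an alternative. All 16 such pairs correlated above 0 and 13 correlated best with their own number, a hint of pairing from the data that the labels do not give. With a replicate block, the interaction of LYVE1+CX3CR1+ with MHCII+CD11c+ called 3 genes, and with the replicate block nested in treatment 3. The nested block gave 9 for LYVE1+CX3CR1+ against MHCII+CD11c- in controls. It was fitted only to comparisons between subsets and to interactions, not to IC against control or the mean response. The plain block ties control and IC libraries of the same number and was fitted to all of them. Among the counts computed, no other moved by over 1.5 times under either block. The IC and mean-response counts were thus not checked for pairing within a treatment.

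Of 59 named calls, 31 were made under every alternative and 0 changed direction. Values that were not called and changed sign were as follows. With voom, they were Irf7 at -0.0527 in LYVE1+CX3CR1+ and Stat2 at 0.0391 in MHCII+CD11c+. With surrogate variables, they were Irf7 at -0.0350 in LYVE1+CX3CR1+, Ddx60 at 0.0761 and Irf9 at 0.0535 in MHCII+CD11c-, Stat2 at 0.30 in MHCII+CD11c+, and Irf9 at 0.0189 and Stat2 at 0.0694 in the mean response. In the mean response Irf9 was at 0.00784 with the light filter, and Irf9 at 0.0533 and Stat2 at 0.0130 over the MHCII+ subsets. Leaving out 1 library each, Irf7 ran from -0.0598 to 0.19 in LYVE1+CX3CR1+, Stat2 from -0.11 to 0.27 in MHCII+CD11c- and from -0.30 to 0.22 in MHCII+CD11c+, and Irf9 from -0.0666 to 0.0322 and Ifnar2 from -0.0214 to 0.0942 in the mean response.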
